A study of Mus musculus with 4 samples.

Results

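Complement genes were followed across the cell classes of omental tumors grown from the KPCA.A, KPCA.B and KPCA.C lines and of KPCA ascites, the fluid that collects in the abdomen. The genes were C1qa, C1qb, C1qc, C4b, C3, Cfb, Cfp, C3ar1 and C5ar1. They were chosen by symbol, and all 9 were found among the 30406 genes that the annotations of the 4 libraries shared. Complement is a cascade of secreted proteins that tags surfaces for uptake or lysis. C1q starts the classical pathway and leads through C4 and C2 to cleavage of C3, while factor B and properdin amplify C3 cleavage in the alternative pathway. The fragments released from C3 and C5 act through G protein-coupled receptors on myeloid cells. Hepatocytes make most complement protein in plasma, and macrophages, fibroblasts and mesothelial cells are known local sources.

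The ascites library came from C57BL6J mice of 9 weeks, and the labels do not say which KPCA line or how many mice it came from. Each tumor library pooled 4 omental tumors from C57BL6J mice of 8 weeks, 1 library each for KPCA.A, KPCA.B and KPCA.C. The lines are named as syngeneic cancer cell lines, and the labels do not spell out the alleles behind the letters. Single-cell 3′ RNA sequencing on the 10x Genomics platform counted unique molecular identifiers (UMIs), each standing for a captured RNA molecule. With 1 library per group, no difference here has a replicate check and no test was made. Intervals are 95% and cover counting error only.

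The files held 3118 barcodes for ascites and 5703, 3358 and 4110 for KPCA.A, KPCA.B and KPCA.C, beside the 5000 cells that the design states. After filters 2914 cells of ascites and 2643, 2579 and 3095 cells of the tumors were used, with median depths of 2077 UMIs in ascites and 7904 to 14674 UMIs in the tumors. In KPCA.A 53.1% of barcodes were over the limit of 15% mitochondrial UMIs, against 5.42% in ascites and at most 24.3% in the other tumors. KPCA.B and KPCA.C shared 19 barcodes, and no other pair of libraries shared more than 13. All samples carry the cell type label Fallopian tube epithelial cells. The ascites library went against that label, with 1 tumor epithelial-like cell of 2914 and 2775 macrophage-like cells. The tumors held 765, 290 and 976 tumor epithelial-like cells in KPCA.A, KPCA.B and KPCA.C, and 853, 637 and 1131 macrophage-like cells. The ascites also differed from the tumors in depth, in the Cell Ranger version and gene annotation of its files, and in the start of its barcodes, and these cannot be told apart from the condition.

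C1qa, C1qb and C1qc encode the 3 chains of C1q and lie next to each other on the minus strand of mouse chromosome 4, within 18675 bases (GRCm38, GENCODE vM21). C1qb lies at chr4:136880129-136886187, C1qc at chr4:136889804-136893065 and C1qa at chr4:136895917-136898803. C3 lies at chr17:57203970-57228136, also on the minus strand. RefSeq promoter windows (GRCm38.p6, 250 bases before to 50 after the start) were found for 6 of the 9 genes. The windows of C1qb and C1qc are shown because the C1q genes moved together, and that of C3 because its cell classes differed from theirs. Capitals mark motif matches.
C1qb (chr4:136886151-136886450, minus strand): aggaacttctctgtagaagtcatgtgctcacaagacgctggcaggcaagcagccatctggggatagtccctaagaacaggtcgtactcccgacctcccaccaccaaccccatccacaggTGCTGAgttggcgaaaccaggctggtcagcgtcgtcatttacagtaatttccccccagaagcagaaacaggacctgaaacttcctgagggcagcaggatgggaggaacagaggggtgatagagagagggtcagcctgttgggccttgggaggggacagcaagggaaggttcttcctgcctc
C1qc (chr4:136892865-136893164, minus strand): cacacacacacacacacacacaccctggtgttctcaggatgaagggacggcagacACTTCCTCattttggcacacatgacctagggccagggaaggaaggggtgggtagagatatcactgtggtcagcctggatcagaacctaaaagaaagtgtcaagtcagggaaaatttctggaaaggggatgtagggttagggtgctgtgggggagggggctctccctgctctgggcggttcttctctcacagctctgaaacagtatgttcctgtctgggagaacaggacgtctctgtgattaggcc
C3 (chr17:57228087-57228386, minus strand): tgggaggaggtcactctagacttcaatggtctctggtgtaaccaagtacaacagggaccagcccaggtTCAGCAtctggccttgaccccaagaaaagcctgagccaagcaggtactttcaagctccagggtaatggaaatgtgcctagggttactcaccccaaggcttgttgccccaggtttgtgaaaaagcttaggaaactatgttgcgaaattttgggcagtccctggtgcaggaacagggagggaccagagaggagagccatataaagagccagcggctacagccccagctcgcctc

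Both strands were searched for GAGGAAGT (PU.1), TGCTGA (the core of the recognition element of large MAF factors), GAAANNGAA (the interferon-stimulated response element, ISRE), TTGCNNCAA (C/EBP) and GGGANTTTC (NF-kB). C1qc held the PU.1 letters, reverse complemented, 188 bases before its start, letters found in 3.11% of 32544 promoters of the same length. C1qb held TGCTGA 126 bases before its start, and C3 held its reverse complement 177 bases before. C3ar1 and C5ar1 also held TGCTGA, so that 4 of the 6 windows did, against 19.5% of all promoters. C5ar1 further held the ISRE letters, found in 8.53% of promoters. No window of the 6 held the C/EBP or the NF-kB letters, which 2.09% and 1.12% of promoters held. A match is a stretch of letters, and binding was not measured.

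The first question was which cells carried each gene. Among classes with at least 50 cells, the C1q chains and the receptor C3ar1 were highest in macrophage-like cells in every library. Properdin (Cfp) was too, with dendritic cell-like cells close to them in KPCA.C. Dendritic cell-like cells of KPCA.A, 45 in number, were too few for a level. The receptor C5ar1 was highest in neutrophil-like cells in KPCA.A and in macrophage-like cells in the other libraries. Those libraries had too few neutrophil-like cells for a level, with 17 in ascites, 40 in KPCA.B and 9 in KPCA.C. By contrast, C3 and factor B (Cfb) were spread over mesothelial-like, fibroblast-like, tumor epithelial-like and macrophage-like cells. Levels are UMIs summed over the cells of a class, given per 1000000 UMIs of that class (CPM). They were not divided by transcript length, so levels are compared for 1 gene at a time.

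**Figure D1:**
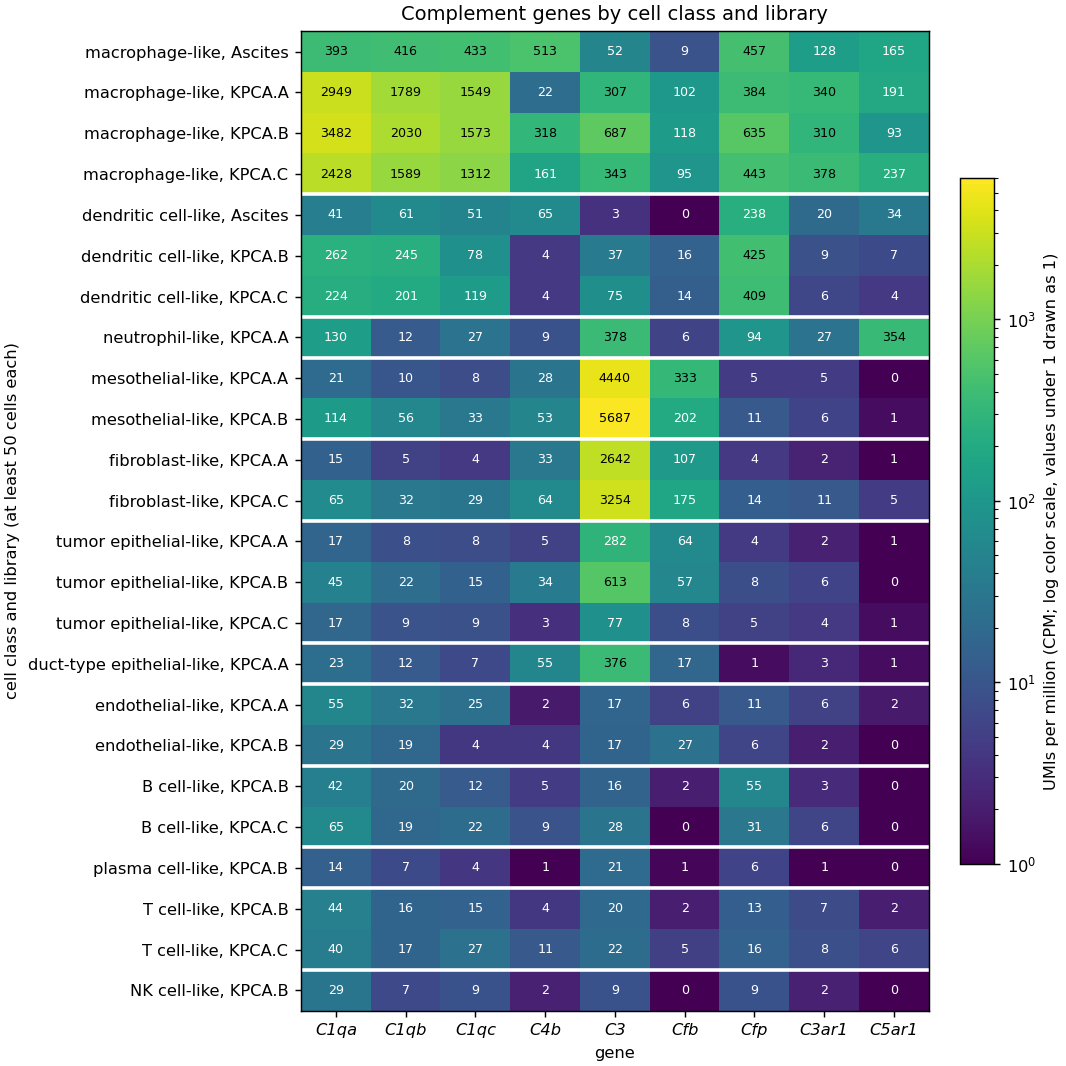
Level of each gene (columns, CPM) in each cell class and library with at least 50 cells (rows). In macrophage-like cells C1qa reached 2949 CPM for KPCA.A, 3482 CPM for KPCA.B and 2428 CPM for KPCA.C, while C3 was highest in mesothelial-like cells, at 4440 CPM in KPCA.A and 5687 CPM in KPCA.B.

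**Figure D2:**
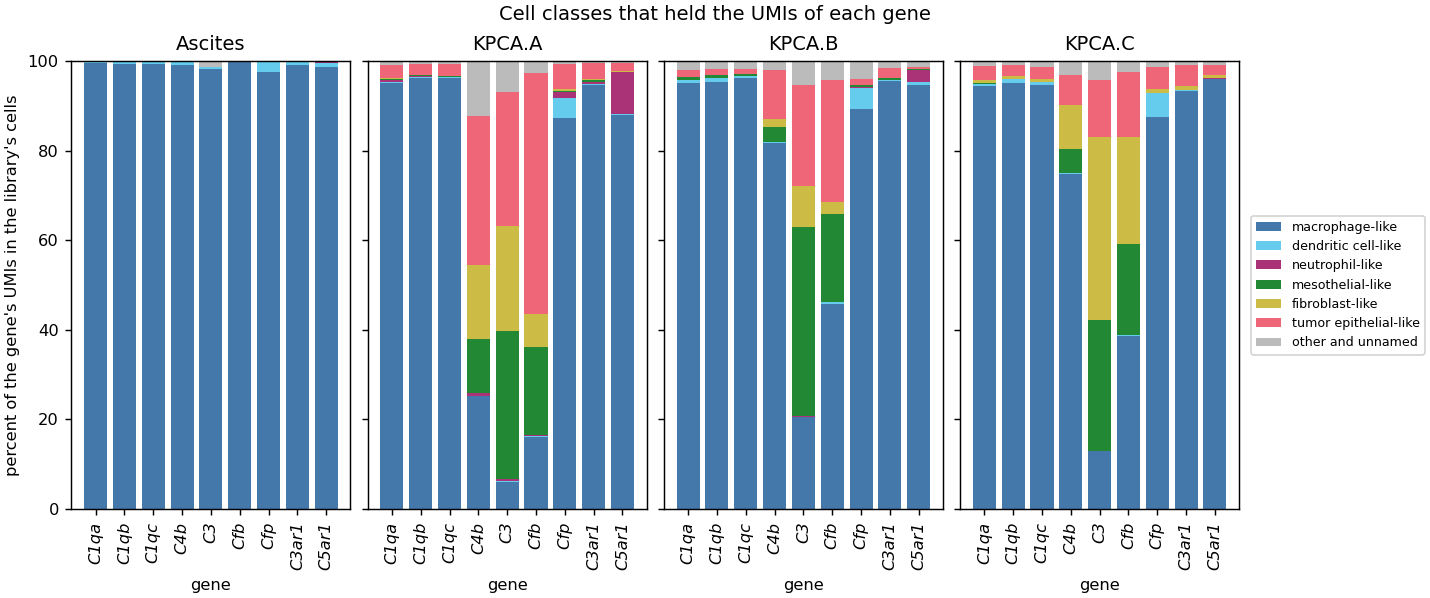
Percent of each gene's UMIs (vertical axis) that came from each cell class, by library. Macrophage-like cells held 94.3% to 96.3% of the C1q UMIs of the tumors but 6.10% of the C3 UMIs in KPCA.A, 20.5% in KPCA.B and 12.8% in KPCA.C.

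Macrophage-like cells held 99.4% or 99.5% of the UMIs of each C1q chain in ascites and 94.3% to 96.3% in the tumors. C1qa stood at 393 CPM (378 to 408) in ascites macrophage-like cells, against 2949 CPM (2905 to 2993) for KPCA.A, 3482 CPM (3443 to 3520.0) for KPCA.B and 2428 CPM (2403 to 2454) for KPCA.C. C1qb stood at 416 CPM in ascites, against 1789, 2030.1 and 1589 CPM in KPCA.A, KPCA.B and KPCA.C. C1qc stood at 433 CPM in ascites, against 1549, 1573 and 1312 CPM. All 3 chains were low in ascites and high in every tumor, and the tumors lay within 1.43-fold of each other for each chain.

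Cells of other classes held few C1q UMIs. In tumor epithelial-like cells C1qa was at 17.2, 45.0 and 17.4 CPM in KPCA.A, KPCA.B and KPCA.C. With each cell thinned to 1000 UMIs, C1qa was seen in 68.5%, 75.0% and 65.8% of macrophage-like cells in KPCA.A, KPCA.B and KPCA.C, against 2.62%, 4.17% and 1.77% of tumor epithelial-like cells. Without thinning the shares were 77.3%, 86.8% and 81.3% of macrophage-like cells and 31.8%, 37.6% and 55.5% of tumor epithelial-like cells, whose median depths were 5773, 12090 and 10450 UMIs against 37540, 33460 and 60092 UMIs. Tumor epithelial-like cells are not a known source of C1q, and the part of free RNA and of remaining doublets in their C1q UMIs was not tested. Dendritic cell-like cells of KPCA.B and KPCA.C stood above tumor epithelial-like cells, at 262 and 224 CPM of C1qa, and their C1qb reached 245 and 201 CPM.

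All 3 chains were seen in the same cell in 20.4% of ascites macrophage-like cells, against 65.7%, 79.3% and 69.6% in KPCA.A, KPCA.B and KPCA.C. At 1000 UMIs per cell the values were 6.44% in ascites, against 43.4%, 46.5% and 39.6%, so the gap was also there at matched depth. The make-up of the C1q UMIs differed too. C1qa gave 31.7% (30.7 to 32.7) of the C1q UMIs of ascites macrophage-like cells, against 46.9%, 49.1% and 45.6% in the tumors, whose counting intervals lay between 45.2% and 49.5%. C1qc gave 34.9% in ascites, against 24.6%, 22.2% and 24.6%. In tumor epithelial-like cells C1qa gave 51.5%, 54.8% and 49.5% of the C1q UMIs in KPCA.A, KPCA.B and KPCA.C, a few points above the macrophage-like cells of the same library.

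C4b encodes complement C4, the component cleaved after C1 in the classical and lectin pathways. It was the gene of the 9 that differed most between the macrophage-like cells of the tumors, and it was highest in 1 macrophage-like cluster in each of them. In macrophage-like cells C4b stood at 513 CPM (496 to 531) in ascites, against 22.2 CPM (18.5 to 26.4) for KPCA.A, 318 CPM (307 to 330.2) for KPCA.B and 161 CPM (155 to 168) for KPCA.C. KPCA.A was low and the other 3 libraries were high. Macrophage-like cells held 81.8% and 74.9% of the C4b UMIs of KPCA.B and KPCA.C but 25.3% of those of KPCA.A, where tumor epithelial-like cells held 33.2%. Duct-type epithelial-like cells of KPCA.A reached 55.0 CPM and fibroblast-like cells of KPCA.C 64.1 CPM.

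C4b has a near-identical copy, C4a, 65209 bases away on chromosome 17. The tumors' annotation lists C4a, at 27, 20 and 28 UMIs over all barcodes in KPCA.A, KPCA.B and KPCA.C, and the ascites annotation does not. Of the 50-base windows in the last 500 bases of the longest C4b transcript 38.1% also occur in C4a, and of the 91-base windows 19.8%. Reads that match both genes can be counted for C4b under 1 annotation and set aside under the other, so the C4b level in ascites is uncertain against the tumors. How much of the difference this made was not tested. It does not bear on the comparison between tumors, which share an annotation.

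C3 is the component on which all complement pathways converge. It was highest in cells of the omental lining and stroma, with 4440 CPM in mesothelial-like cells of KPCA.A and 5687 CPM in those of KPCA.B. Fibroblast-like cells had 2642 CPM in KPCA.A and 3254 CPM in KPCA.C. Most of those UMIs came from a cluster of 69 and 61 cells, at 3401 and 3902 CPM, that was split from the mesothelial-like cells. It held 4 of 11 fibroblast markers at the level used for naming. A fibroblast-like cluster of 16 and 26 cells, with 7 of the 11 at that level, was at 729.8 and 1231 CPM. Macrophage-like cells had 52.1 CPM in ascites, against 307, 687 and 343 CPM in KPCA.A, KPCA.B and KPCA.C. Tumor epithelial-like cells had 282, 613 and 77.5 CPM in KPCA.A, KPCA.B and KPCA.C. Mesothelial-like and fibroblast-like cells thus stood above the macrophage-like and tumor epithelial-like cells of their library by several-fold. Among the mesothelial-like, macrophage-like and tumor epithelial-like classes, KPCA.B was the highest tumor measured in each, while dendritic cell-like cells were at 36.9 CPM for KPCA.B, under the 75.0 CPM for KPCA.C.

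Neutrophil-like cells of KPCA.A had 378 CPM of C3 (314 to 450.1) and duct-type epithelial-like cells of KPCA.A 376 CPM. B cell-like, T cell-like, NK cell-like and plasma cell-like cells had 9.01 to 28.0 CPM in KPCA.B and KPCA.C, far below the stromal classes. At 1000 UMIs per cell C3 was seen in 91.2% and 98.6% of mesothelial-like cells of KPCA.A and KPCA.B, in 16.9%, 37.2% and 7.17% of tumor epithelial-like cells in KPCA.A, KPCA.B and KPCA.C, and in 1.23% and 2.90% of B cell-like cells of KPCA.B and KPCA.C. Because tumor epithelial-like cells were many, they held 30.0%, 22.6% and 12.9% of the C3 UMIs in KPCA.A, KPCA.B and KPCA.C. Mesothelial-like cells held 33.1%, 42.2% and 29.2%, although they were 3.03%, 2.87% and 1.26% of the cells. Mesothelial-like cells of KPCA.C, 39 in number, were too few for a level.

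Cfb encodes factor B, the protease subunit of the alternative pathway C3 convertase. Cfb shared the mesothelial-like and fibroblast-like classes of C3, with 333 and 202 CPM in mesothelial-like cells of KPCA.A and KPCA.B and 107 and 175 CPM in fibroblast-like cells of KPCA.A and KPCA.C. Macrophage-like cells had 9.24 CPM (7.08 to 11.8) in ascites, against 102, 118 and 94.7 CPM in KPCA.A, KPCA.B and KPCA.C. Neutrophil-like and duct-type epithelial-like cells of KPCA.A had 6.04 and 17.4 CPM of Cfb. C3 stood above the macrophage-like cells in the duct-type epithelial-like cells. For C3 the intervals of neutrophil-like and macrophage-like cells overlapped, at 314 to 450.1 and 293 to 322 CPM. Tumor epithelial-like cells had 63.9 and 56.5 CPM in KPCA.A and KPCA.B and 8.06 CPM in KPCA.C. The Cfb UMIs of KPCA.A came mostly from tumor epithelial-like cells, at 53.8%, whereas macrophage-like cells held the largest share in KPCA.B, at 45.8%, and in KPCA.C, at 38.5%. Cfb lies at chr17:34856374-34862518, 112491 bases from C4b and 85 bases from C2.

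Cfp encodes properdin, which stabilises that convertase, and lies on the X chromosome. Its levels in macrophage-like cells were 457 CPM in ascites, against 384, 635 and 443 CPM in KPCA.A, KPCA.B and KPCA.C. Dendritic cell-like cells followed, with 238 CPM in ascites, against 425 and 409 CPM in KPCA.B and KPCA.C. The intervals of the macrophage-like and dendritic cell-like cells overlapped in KPCA.C, at 432 to 454 and 369 to 452 CPM, and no such overlap was seen in ascites or KPCA.B. B cell-like cells of KPCA.B had 55.5 CPM.

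C3ar1 encodes the receptor of the C3a fragment. Macrophage-like cells had 128 CPM of C3ar1 in ascites, against 340, 310.3 and 378 CPM in KPCA.A, KPCA.B and KPCA.C. No other class exceeded 27.2 CPM, the level in neutrophil-like cells of KPCA.A. C5ar1, the receptor of C5a, had 165 CPM in macrophage-like cells of ascites, against 191, 93.4 and 237 CPM in KPCA.A, KPCA.B and KPCA.C. Neutrophil-like cells of KPCA.A stood above the macrophage-like cells for C5ar1, with 354 CPM (292 to 424). The C3ar1 level of those neutrophil-like cells lay far below that of macrophage-like cells, so the 2 receptors differed in their order across the myeloid classes. Tumor epithelial-like cells had at most 5.75 CPM of C3ar1 and 1.33 CPM of C5ar1.

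The second question was whether macrophages differed between the lines. In macrophage-like cells 3 of the 9 genes were counted between KPCA.A and KPCA.B, 1 between KPCA.A and KPCA.C and 2 between KPCA.B and KPCA.C. Of all genes with enough UMIs, 10.5%, 4.89% and 12% were. A gene was counted where the CPM differed at least 2-fold. The classes were made of different clusters, built without the complement genes. A cluster with Mmp12 and Mrc1 among its leading genes held 572 of 853 macrophage-like cells in KPCA.A and 751 of 1131 in KPCA.C but 58 of 637 in KPCA.B. A Retnla-high cluster, led also by Lyve1, Cd5l and Fcna, held 346 cells in KPCA.B, against 36 in KPCA.A and 106 in KPCA.C. A cluster led by interferon-response and monocyte genes such as Cxcl9 and Ccr2 held 162, 161 and 188 cells.

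**Figure D3:**
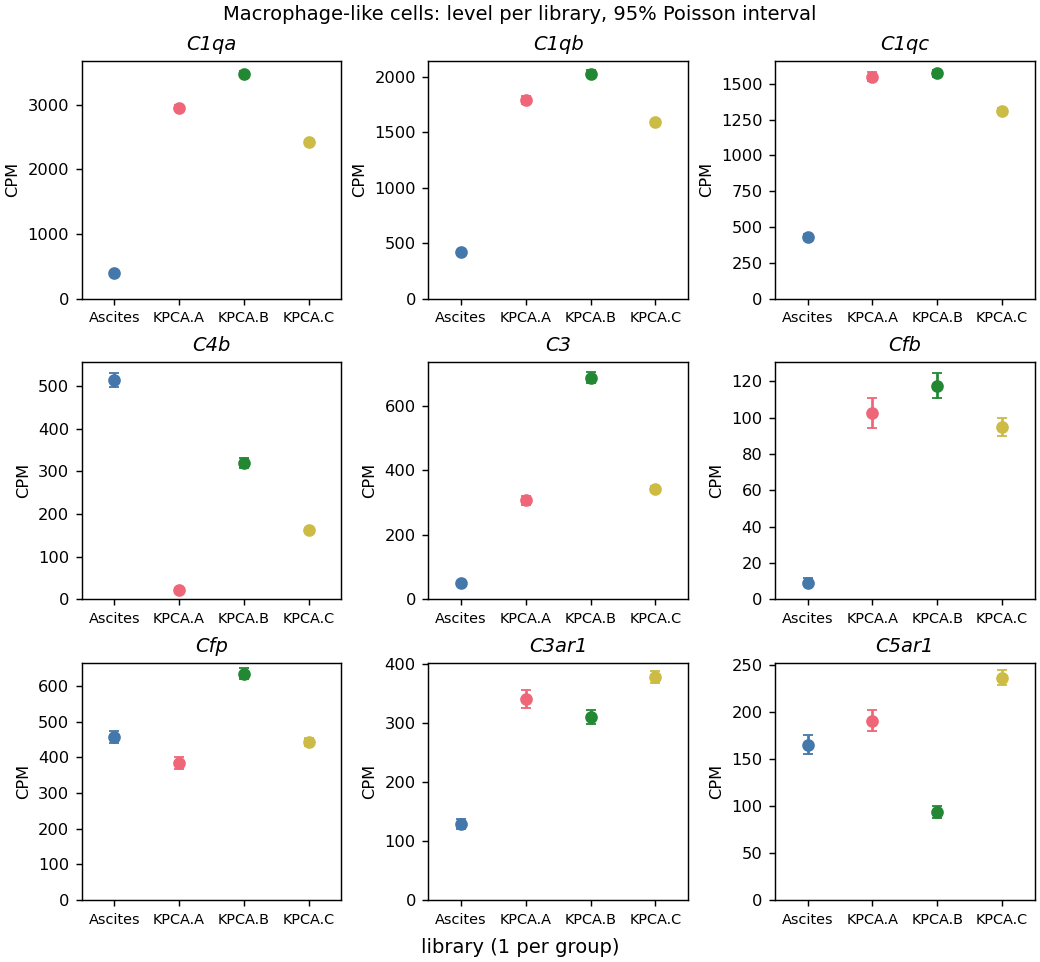
Level of each gene in macrophage-like cells (CPM, with 95% Poisson intervals) in the ascites, KPCA.A, KPCA.B and KPCA.C libraries. C4b was at 513 CPM in ascites and at 22.2, 318 and 161 CPM in KPCA.A, KPCA.B and KPCA.C, and C5ar1 was lowest in KPCA.B, at 93.4 CPM.

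Between KPCA.A and KPCA.B, 3 of the 9 genes passed 2-fold, where 10.5% of the 10009 genes with enough UMIs did. C4b was 14.3-fold lower in KPCA.A (12.0 to 17.3), C3 was 2.24-fold lower (2.12 to 2.36) and C5ar1 was 2.04-fold higher (1.87 to 2.24). Between KPCA.A and KPCA.C, C4b alone passed, at 7.27-fold lower in KPCA.A (6.08 to 8.76), where 4.89% of genes did. Between KPCA.B and KPCA.C, 2 of 9 passed, where 12% of genes did. C3 was 2.00-fold higher in KPCA.B (1.93 to 2.08) and C5ar1 2.54-fold lower (2.35 to 2.74). C3 thus stood at the threshold, and C4b, 1.97-fold higher in KPCA.B (1.87 to 2.09), just under it. The C4b direction of this pair turned with the Retnla-high cluster left out. The log2 ratio was then -0.86 with 5 CPM added to both levels, and C4b was past 2-fold in CPM without that addition.

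C4b differed between clusters, and within the Retnla-high cluster KPCA.C, not KPCA.B, was the highest tumor. C4b was at 161, 502 and 755 CPM in the Retnla-high cluster in KPCA.A, KPCA.B and KPCA.C, and at 16.6, 24.8 and 28.4 CPM in the Mmp12 cluster. In the Cxcl9 cluster C4b was at 18.7, 10.9 and 28.0 CPM. KPCA.C had the highest value in these clusters too, with an interval that overlapped that of KPCA.B in the Mmp12 cluster and that of KPCA.A in the Cxcl9 cluster. The Retnla-high cluster was high in every tumor and the other clusters were low. With the Retnla-high cluster left out, the log2 ratio of KPCA.A over KPCA.B was 0.20 in place of -3.57, and no gene passed 2-fold between KPCA.A and KPCA.C.

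**Figure D4:**
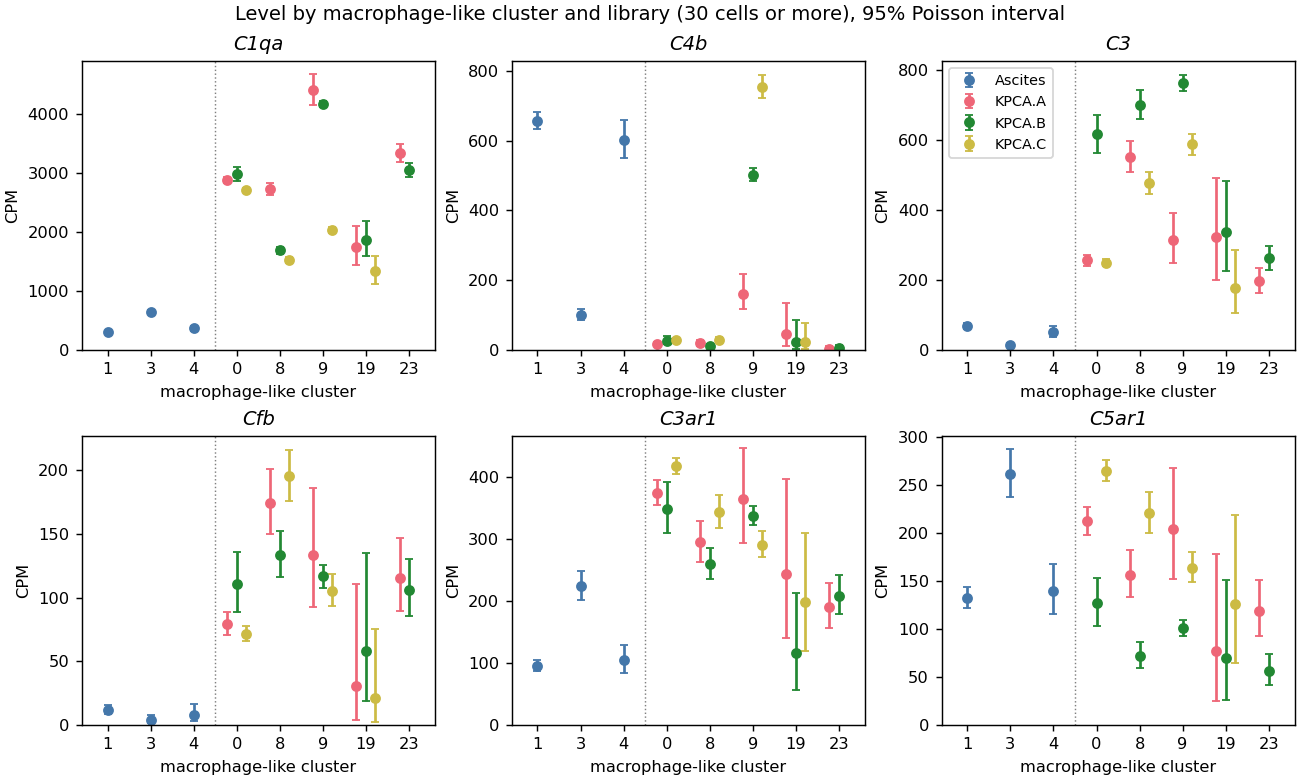
Level (CPM, with 95% Poisson intervals) by macrophage-like cluster (horizontal axis) and library, for clusters with at least 30 cells of a library. C4b stood at 161 to 755 CPM in the Retnla-high cluster (cluster 9) and at 10.9 to 28.4 CPM in clusters 0 and 8 of the tumors.

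C5ar1 was lowest in KPCA.B in the Mmp12, Cxcl9 and Retnla-high clusters. It was at 212, 126 and 265 CPM in the Mmp12 cluster in KPCA.A, KPCA.B and KPCA.C, and at 157, 71.8 and 221 CPM in the Cxcl9 cluster. In the Retnla-high cluster it was at 204, 101 and 164 CPM, with KPCA.A above KPCA.C there. C3 was at 255, 616 and 248 CPM in the Mmp12 cluster and at 552, 701 and 476 CPM in the Cxcl9 cluster, with KPCA.B the highest in both, and at 314, 764 and 587 CPM in the Retnla-high cluster. C1qa was at 2875, 2984 and 2708 CPM in the Mmp12 cluster, a narrow range, but at 2724, 1685 and 1524 CPM in the Cxcl9 cluster and at 4412, 4167 and 2029 CPM in the Retnla-high cluster. In that cluster C1qa was past 2-fold between KPCA.B and KPCA.C. Markers of T cells and of mesothelium, the class highest in C3, summed to at most 4.68 CPM in macrophage-like cells of any library. Fibroblast markers summed to 57.7, 65.0 and 93.9 CPM and tumor epithelial markers to 402, 110.3 and 362 CPM in the macrophage-like class in KPCA.A, KPCA.B and KPCA.C, and their part in the differences was not tested.

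The third question was whether the tumor cells of the lines differed. C3 and Cfb were high in tumor epithelial-like cells of KPCA.A and KPCA.B and low in those of KPCA.C. Different clusters made up the class. A cluster with H19 and Cdh6 among its leading genes held 541 of 765 cells in KPCA.A and 207 of 290 in KPCA.B, while a cluster led by Igfbp3 and Grem1 and a cycling cluster held 578 and 277 of 976 cells in KPCA.C. In KPCA.A the class also held 25 cells led by stomach genes such as Gkn1 and Tff1.

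Over KPCA.C, C3 in tumor epithelial-like cells was 3.64-fold higher for KPCA.A (3.51 to 3.77) and 7.92-fold higher for KPCA.B (7.63 to 8.21). Cfb over KPCA.C was 7.92-fold higher for KPCA.A (7.18 to 8.75) and 7.01-fold higher for KPCA.B (6.23 to 7.90). KPCA.A tumor cells had 2.17-fold less C3 than those of KPCA.B (2.11 to 2.25) and 1.13-fold more Cfb (1.03 to 1.24). Both genes were thus low in KPCA.C. Within the H19 cluster C3 was at 224, 603 and 62.7 CPM and Cfb at 40.5, 38.0 and 14.9 CPM in KPCA.A, KPCA.B and KPCA.C. Both genes kept the order of the whole class. The Cfb gap to KPCA.C was narrower than in the whole class, where the levels were 63.9, 56.5 and 8.06 CPM. An epithelial cluster led by Wfdc18 and Epcam, found in KPCA.A and KPCA.B, had 467 and 759 CPM of C3 and 133 and 117 CPM of Cfb.

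Counted over the genes, 5 of 8 with enough UMIs were at least 2-fold lower for KPCA.A than for KPCA.B, where 14.9% of all genes differed by that much. They were C3, C4b, C1qa, C1qb and C3ar1. Between KPCA.A and KPCA.C 2 of 9 passed, C3 and Cfb, both higher in KPCA.A, where 17.3% of all genes passed. Between KPCA.B and KPCA.C 6 of 9 passed, where 24.5% did, with C3, Cfb, C4b, C1qa and C1qb higher in KPCA.B and C5ar1 lower. C4b was at 5.42, 34.4 and 3.28 CPM in KPCA.A, KPCA.B and KPCA.C. C1qa, C1qb, C3ar1 and C5ar1 are genes of macrophage-like cells, and all 15 macrophage markers were also found in these tumor epithelial-like cells, at 545, 572 and 605 CPM summed in KPCA.A, KPCA.B and KPCA.C. Most of each sum was the marker Ctsb alone, at 402, 374 and 452 CPM. The part of RNA from macrophages in the counts was not tested. The count between KPCA.A and KPCA.B was 1, C4b, with the highest 5% of doublet scores left out, which kept 201 and 73 tumor epithelial-like cells.

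In fibroblast-like cells the comparison was possible between KPCA.A and KPCA.C only, since KPCA.B had 25 of them. C3 was 1.23-fold lower in KPCA.A (1.20 to 1.27) and Cfb 1.64-fold lower (1.43 to 1.89), neither past 2-fold. The 5 of 8 genes that passed, where 3.45% of all genes did, were C1qa, C1qb, C1qc, Cfp and C3ar1, all lower in KPCA.A. They are the genes of macrophage-like cells, and macrophage markers in these fibroblast-like cells summed to 1002 CPM in KPCA.A with 2 of 15 at 0 and 1616 CPM in KPCA.C with none at 0. Ctsb alone gave 682 CPM of the sum in KPCA.A and 712 CPM in KPCA.C. The part of RNA from macrophages in the result was not tested. With all stromal clusters joined into 1 class, a grouping chosen after seeing the data, C3 was at 3299.6, 5719 and 3649.8 CPM in KPCA.A, KPCA.B and KPCA.C. The make-up of this class differed, with 80 mesothelial-like cells of 237 in KPCA.A, 74 of 125 in KPCA.B and 39 of 172 in KPCA.C. The part of this make-up in the C3 levels was not tested.

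The last question was how macrophages of the ascites differed from those of the tumors. Complement expression in ascites macrophage-like cells was lower for 6 genes, near that of the tumors for Cfp and C5ar1, and high for C4b. No macrophage-like cluster was shared beyond 1 cell, as nearly all ascites macrophage-like cells fell in 3 clusters of their own. A cluster of 1295 cells was led by Wfdc21 and Prg4, a cluster of 741 cells had Pf4 and Cd163 among its leading genes, and a cluster of 738 cells had few UMIs.

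**Figure D5:**
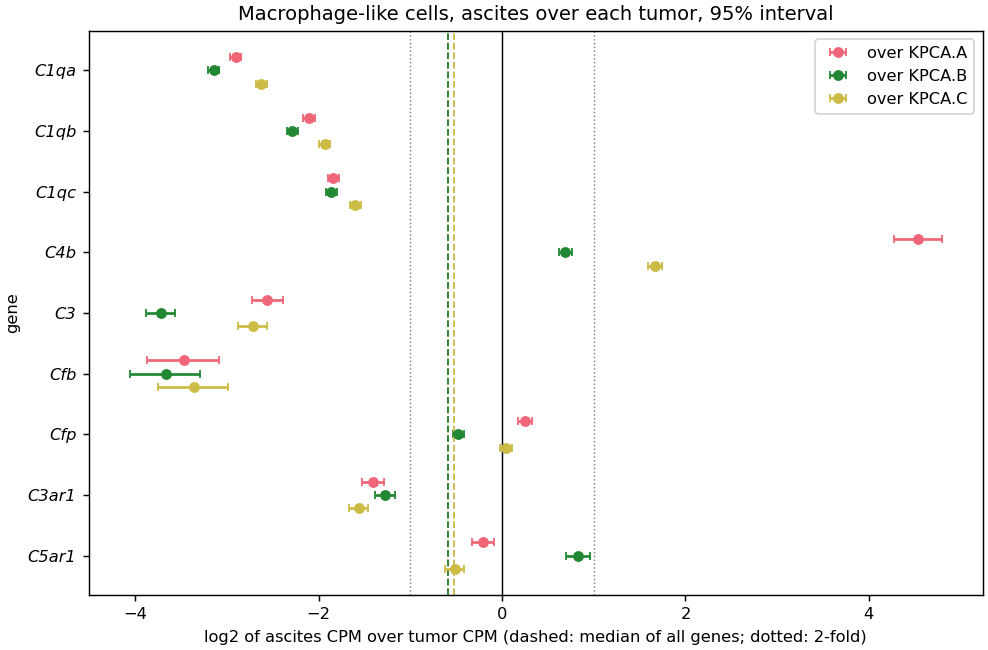
Log2 of the CPM in ascites over that in each tumor (horizontal axis, with 95% intervals) for macrophage-like cells, with the median of all genes dashed and 2-fold dotted. C1qa, C1qb, C1qc, C3, Cfb and C3ar1 lay beyond 2-fold on the low side for all 3 tumors, and C4b lay on the high side.

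C1qa was 7.50-fold lower in ascites than in KPCA.A (7.20 to 7.82), 8.85-fold lower than in KPCA.B (8.51 to 9.22) and 6.18-fold lower than in KPCA.C (5.94 to 6.43). C1qb was 3.82-fold to 4.89-fold lower and C1qc 3.03-fold to 3.64-fold lower. Cfb was 10.2-fold to 12.7-fold lower, C3 5.90-fold to 13.2-fold and C3ar1 2.42-fold to 2.95-fold. C4b was 23.1-fold higher than in KPCA.A (19.4 to 27.8), 1.61-fold higher than in KPCA.B (1.53 to 1.69) and 3.18-fold higher than in KPCA.C (3.02 to 3.36), under the limit given above for its annotation. C4b without the Retnla-high cluster of the tumors was at least 2-fold above all 3.

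The 6 genes at least 2-fold below all 3 tumors stand beside 34.6% of all 11125 genes, and none of the 9 was at least 2-fold above all 3, beside 5.02%. The ascites values share their 1 library across the 3 ratios. The median log2 ratio over the 9 genes was -1.83, -1.85 and -1.59 against KPCA.A, KPCA.B and KPCA.C, and over all genes -0.59, -0.59 and -0.52. Relative to that shift, the log2 ratio was -2.30, -2.54 and -2.09 for C1qa and -1.50, -1.68 and -1.40 for C1qb. Under median-of-ratios scaling, which removes the shift, 16.3% of all genes were below and 12.9% above. Then C1qa, C1qb, C3 and Cfb remained at least 2-fold below all 3 tumors, C1qc and C3ar1 did not, and C4b was above. Cfp changed direction with the scaling against KPCA.B, at -0.47 with CPM and 0.32 with median of ratios. C5ar1 changed direction against KPCA.A, at -0.20 and 0.57, and against KPCA.C, at -0.51 and 0.21. Against the remaining tumors both genes were positive under both scalings. With median of ratios Cfp was at 1.03 against KPCA.A and C5ar1 at 1.56 against KPCA.B, both past 2-fold.

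Within ascites the clusters differed. C4b was at 656 CPM in the Prg4 cluster and 99.3 CPM in the Pf4 cluster, and C3 was at 67.8 and 12.8 CPM. C5ar1 ran the other way, at 132 CPM in the Prg4 cluster and 262 CPM in the Pf4 cluster, as did C1qa, at 304 and 641 CPM. Every ascites cluster stayed below the tumors' macrophage-like clusters for C1qa, whose lowest level with at least 30 cells was 1338 CPM. Neutrophil markers summed to 2390.4 CPM in ascites macrophage-like cells, mostly S100a8, against 152, 46.7 and 121 CPM in KPCA.A, KPCA.B and KPCA.C, and their part in the differences was not tested. T cell markers were all at 0 there.

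Of 39 other complement genes listed, 38 were in all annotations and 17 reached 50 CPM in some class. Among classical and lectin pathway proteins the proteases C1ra and C1s1 and the protease precursor C2 were stromal, with C1ra at 191 CPM in fibroblast-like cells of KPCA.C and C1s1 at 367 CPM and C2 at 82.6 CPM in mesothelial-like cells of KPCA.B and KPCA.A. C1ra and C1s1 have near copies, C1rb and C1s2, that were at most 0.42 and 1.06 CPM, and reads could be split between them. Masp1, a lectin pathway protease, reached 53.7 CPM in endothelial-like cells of KPCA.B. Fcna, a ficolin that recognises sugars, was a macrophage gene at 205 CPM in ascites, against 292 CPM for KPCA.B and 75.4 CPM for KPCA.C, with a KPCA.A level 13.3-fold below that of KPCA.B. Fcna and C4b shared that order of the tumors, and Fcna was among the leading genes of the Retnla-high cluster.

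Regulators were mostly outside macrophages. Serping1, the C1 inhibitor, reached 919 CPM in fibroblast-like cells of KPCA.C. Clu, clusterin, an inhibitor of the terminal complex, reached 10464 CPM in duct-type epithelial-like cells of KPCA.A and was at 4076, 1544 and 787 CPM in tumor epithelial-like cells in KPCA.A, KPCA.B and KPCA.C. Cfi, the protease factor I, was a tumor cell gene in KPCA.A and KPCA.B, at 36.6 and 102 CPM, against 1.12 CPM in KPCA.C. Low levels of C3, Cfb, Cfi and Serping1 thus stood side by side in the KPCA.C tumor cells, where Serping1 was at 4.96 CPM, against 22.1 and 40.0 CPM in KPCA.A and KPCA.B. Cd55, a decay accelerator on cell surfaces, was highest in B cell-like cells of KPCA.B, at 268 CPM, and Cr1l, the mouse regulator Crry, in endothelial-like cells of KPCA.B, at 169 CPM.

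Among receptors, Cr2 marked B cell-like cells, at 291 CPM in KPCA.B, and C5ar2, the second C5a receptor and a neighbour of C5ar1, was highest in neutrophil-like cells of KPCA.A, at 115 CPM. Itgam, Itgax and Itgb2 form the integrin receptors of iC3b. Itgam was at 821 CPM in macrophage-like cells of KPCA.C, Itgb2 at 481 CPM in those of ascites and Itgax at 260.4 CPM in dendritic cell-like cells of KPCA.C. Itgax was at 2.09 CPM in ascites macrophage-like cells, against 160.0, 112 and 54.5 CPM in KPCA.A, KPCA.B and KPCA.C. Cd93 was highest in endothelial-like cells of KPCA.B, at 1871 CPM. The terminal components were low in every class, with C6 the highest at 16.1 CPM in macrophage-like cells of KPCA.B.

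Counted on the list as a whole, 4 of 13 such genes with enough UMIs passed 2-fold in macrophage-like cells between KPCA.A and KPCA.B, 4 of 13 between KPCA.A and KPCA.C and 6 of 13 between KPCA.B and KPCA.C, beside 10.5%, 4.89% and 12% of all genes. In tumor epithelial-like cells the counts were 4 of 12, 7 of 14 and 8 of 14, beside 14.9%, 17.3% and 24.5%, and in fibroblast-like cells 1 of 10, beside 3.45%. The median log2 ratio of the list in macrophage-like cells was -0.42, -0.28 and 0.16, beside -0.03, 0.04 and 0.07 over all genes. In ascites 4 of 15, C6, Serping1, Clu and Itgax, were at least 2-fold below all 3 tumors, beside 34.6% of all genes. Cd59a, which blocks the membrane attack complex, was the 1 of 15 above all 3, beside 5.02%, at 16.5 CPM in ascites against 3.64, 5.59 and 4.48 CPM.

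The genes most like each one were found by Pearson's r of log2(CPM + 5) over the 24 class and library profiles of at least 50 cells, among 7801 genes. Profiles of a library share its depth and free RNA, so r is a description. C1qa was most like C1qc (r = 0.97) and C1qb like C1qc (r = 0.98), with Lyz2, a lysozyme of myeloid cells, next to each chain. C3 was most like Pdpn (r = 0.91), the surface protein podoplanin of mesothelium and stroma, and C3 and Cfb had an r of 0.89. C3 and C1qa had an r of 0.16. Cfp was most like Pirb and Cd68 (r = 0.96 each), C3ar1 like the scavenger receptor gene Msr1 (r = 0.97) and C5ar1 like Gm5150 (r = 0.99). C4b was most like Car6 (r = 0.88) and had an r of 0.54 with C1qa.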

How the data were processed

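The deposited counts are whole UMIs per gene and barcode, not normalized. Per the file headers, Cell Ranger 3.0.2 wrote the ascites matrix and Cell Ranger 4.0.0 those of the 3 tumors, whereas the submitters' processing notes name Cell Ranger 3.1.0 and mm10. The annotations list 32285 genes in the tumors and 31053 in ascites. Gene names and barcodes (other text, not a measurement) were used as the authors deposited them.

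Cells needed 300 genes and 500 UMIs, with a mitochondrial share of no more than 15%. Scrublet marked 22 of 11253, 0.196%, too few for the caller to have worked, so doublets remain. Cells were clustered with scanpy 1.11.5 (2000 variable genes without complement genes, 30 components, 15 neighbours, Leiden resolution 1). Clusters were named for the class whose fixed markers scored highest, using markers that reached 100 CPM in some cluster. A name needed at least 3 markers at 20% or more of the level in their highest cluster. Clusters that failed this, or whose leading genes or depth went against the name, were left unnamed. Different names from those of the study may come from this. UMIs were summed per class and library into CPM over 30406 shared genes, for classes of at least 50 cells. Ratios used genes with at least 50 UMIs over the libraries compared, with exact conditional intervals. The intervals were tried on simulated independent Poisson counts, the model that they assume. That trial cannot show whether they cover the spread between cells or libraries. Medians and the log2 ratios of single genes given in the text used log2(CPM + 5), while folds and 2-fold counts used CPM alone. Poisson intervals were used for CPM and Clopper-Pearson intervals for shares. For shares, cells were also thinned to 1000 UMIs, leaving out shallower ones, which kept 2065 macrophage-like cells in ascites and 809, 620 and 1080 in KPCA.A, KPCA.B and KPCA.C.

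All 9 genes are named. Other complement genes are named at 50 CPM or more in any class, except 1 that is not reported here, and for likeness the highest correlations; C6, Cd59a and the near copies were named after their values were seen. The genes, lists and marker lists were chosen with earlier results of these data known. Positions are from GENCODE vM21 and promoters from RefSeq, GRCm38.p6.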

Additional observations from a re-analysis of the deposited data

How the results depend on the processing

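Across the alternatives, 152 of 173 counts stayed within 1.5 times of the value reported and 21 did not. Of 969 log2 ratios of single genes, 721 stayed within the counting interval of the main value and 247 moved outside it. The remaining 1 changed direction from a main value past 2-fold. Of 143 medians over the genes, 107 stayed within the medians of the interval limits and 36 did not. The settings chosen after seeing the data were leaving out the Retnla-high cluster, the clusters of few UMIs, the highest 5% of doublet scores or KPCA.A, and joining the stromal clusters. The log2 ratio of C4b between KPCA.A and KPCA.B macrophage-like cells was 0.20 without the Retnla-high cluster and negative in the other 14 alternatives. That setting also left 1 gene (C5ar1) past 2-fold between KPCA.A and KPCA.B and 0 between KPCA.A and KPCA.C, and put 1 (C4b) above all tumors in ascites. Of the other complement genes it left 1 and 2 past 2-fold in these pairs, and 2 below and 3 above all tumors. Averaging each cell's CPM left 1 gene (C4b) between KPCA.A and KPCA.B macrophage-like cells. Between KPCA.B and KPCA.C 1 gene (C5ar1) was left under the looser cell filter, Leiden resolution 0.5, clustering of each library alone, complement genes kept in clustering, and median-of-ratios scaling. Between KPCA.A and KPCA.B tumor epithelial-like cells 3 were left with averaged cells, 2 under the looser filter and with thinned cells, and 1 without the highest doublet scores, a setting that gave 4 between KPCA.A and KPCA.C. Median-of-ratios scaling put 1 member and 4 other complement genes above all tumors in ascites, beside 12.9% of all genes. At 10 UMIs, a limit that lets in genes with lower counts, 7 other complement genes passed between KPCA.A and KPCA.C macrophage-like cells. Apart from the ascites comparison under median-of-ratios scaling, the share of all genes was not counted under the alternatives. These counts therefore stand beside the main counts only and have no background share. Except where a setting's own construction shows it, the cause was not tested. All 36 shares of cells moved with thinning.

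No paired analysis was possible because each group has 1 library and no result comes from a test. The fibroblast-like comparisons with KPCA.B were not made, as it had 25 such cells. Depth limits C5ar1 in tumor epithelial-like cells, with 22, 4 and 83 UMIs in KPCA.A, KPCA.B and KPCA.C, and Cfb in ascites, with 62 UMIs.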
